A study of Mus musculus with 10 samples.

Results

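Cajal-Retzius cells and subplate neurons are the earliest-born neurons of the cerebral cortex, and 10 genes used to recognise them were followed in cells sorted by Grem1 lineage reporter. The genes were chosen by name as markers and looked up as symbols in the table of counts. They were 6 Cajal-Retzius genes (Reln, Trp73, Lhx1, Lhx5, Calb2 and Ebf3) and 4 subplate genes (Nr4a2, Lpar1, Nxph4 and Tmem163). All 10 were found among the 14300 genes of the table.

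RNA was sequenced from live cells of C57BL/6J Grem1creERT; Rosa26LSLTdtomato embryos at E14.5, 24 h after the pregnant dams had received tamoxifen at E13.5. Each of 5 mice, numbered 2 to 6, gave a TdTomato+ and a TdTomato− library, so both groups carry the same alleles and received the same drug. In these embryos Grem1 regulatory sequence drives a tamoxifen-dependent Cre, and the reporter marks the cells in which Cre was active together with their progeny. The TdTomato− group therefore holds every other live cell of the tissue, and can include Grem1-expressing cells in which recombination did not occur. The methods describe dissected dorsal telencephalon without meninges, and the labels name sorted brain cells.

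Cajal-Retzius cells lie in the marginal zone under the pial surface and secrete Reelin, the glycoprotein that guides the layering of later-born neurons. They arise mainly at the borders of the pallium, such as the cortical hem, septum and antihem, and spread over the cortex by tangential migration. Subplate neurons lie beneath the cortical plate, where they serve as an early target and guide for thalamic axons, and they share several transcription factors with the neurons of layer VI.

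Total counts were 23429034 to 27286180 per library, and the floor of 3 counts corresponded to 0.104 to 0.136 CPM (counts scaled to library size with TMM factors), a limit of counting error only. Grem1 itself ranged from 5.00 to 7.004 CPM over the TdTomato− libraries and from 60.7 to 68.4 CPM over the TdTomato+ libraries (log2 fold change 3.37), in the direction that the labels give. The populations differed over much of the transcriptome. Of 14300 genes, 39.4% were lower and 37.9% higher in TdTomato+ cells at an adjusted p of 0.05 or less (edgeR quasi-likelihood test, mouse as a block, Benjamini-Hochberg adjustment). With a log2 fold change of at least 2 in addition, 9.74% were lower and 3.2% higher. Of all 14300 genes, 32.4% were lower and 29.1% higher without overlap between the CPM of the groups. In bulk RNA of sorted cells, fewer cells of a type and less RNA per cell cannot be told apart.

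All 6 Cajal-Retzius genes fell in TdTomato+ cells, in 5 of 5 mice, but by very different amounts. Trp73, Lhx5, Ebf3 and Lhx1 kept 8.24 to 13.4% of their TdTomato− level (mean of the percentages of the 5 mice), whereas Calb2 kept 38.9% and Reln 58.7%. The 4 subplate genes did not move together. Nr4a2 rose 5.64-fold and Nxph4 1.62-fold by the fitted fold change. Tmem163 fell to 40.8% and Lpar1 to 6.80% of the TdTomato− level, as means of the percentages of the 5 mice. Each of these 10 changes had an adjusted p of 0.05 or less in edgeR, a threshold that 39.4% of all genes passed downward and 37.9% upward. Both thresholds were passed by 4 of 6 Cajal-Retzius genes, all lower, against 9.74% of all genes, and by 2 of 4 subplate genes, 1 lower and 1 higher, against 9.74% and 3.2% of all genes.

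**Figure D1:**
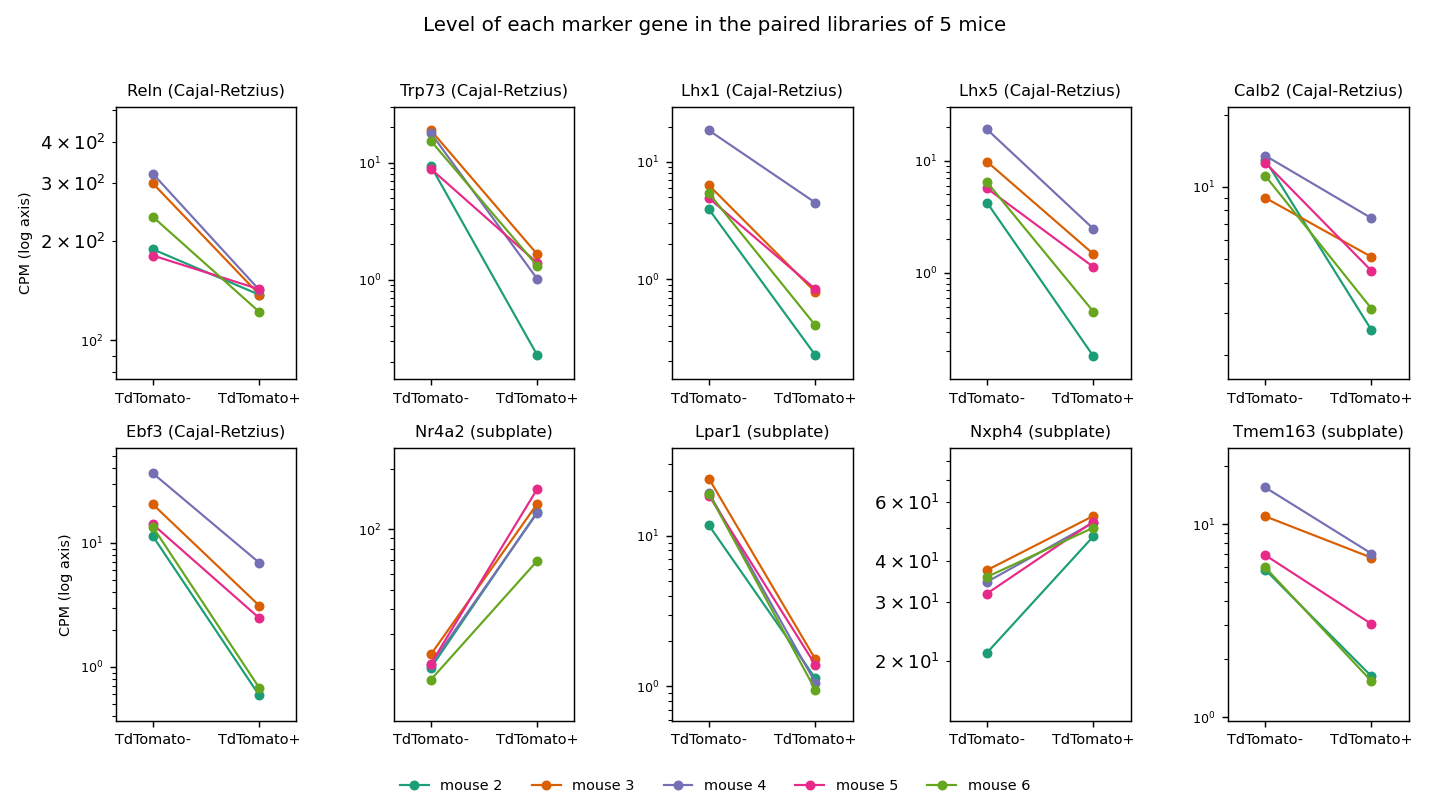
Level of each of the 10 genes in CPM (log axis, each panel with its own range) in the TdTomato− and TdTomato+ library of each mouse, joined by a line. Every line of the 6 Cajal-Retzius panels falls, those of Nr4a2 and Nxph4 rise, and those of Lpar1 and Tmem163 fall.

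The sequence upstream of the start is shown for 3 genes that stand for the 3 kinds of change: Nr4a2, the member that rose most, Ebf3, 1 of the 4 Cajal-Retzius transcription factors with large decreases, and Reln, which fell least. These are 250 bases before the RefSeq start in build GRCm38.p6, all from the minus strand and written 5′ to 3′ in the direction of the gene: chr2:57124004-57124253 for Nr4a2, chr7:137314446-137314695 for Ebf3 and chr5:22344706-22344955 for Reln. Capitals mark the half-site of the cAMP response element (TGACG, or CGTCA where it lies on the other strand) and the E-box (CANNTG), the letters bound by CREB-type and by basic helix-loop-helix factors.
Nr4a2: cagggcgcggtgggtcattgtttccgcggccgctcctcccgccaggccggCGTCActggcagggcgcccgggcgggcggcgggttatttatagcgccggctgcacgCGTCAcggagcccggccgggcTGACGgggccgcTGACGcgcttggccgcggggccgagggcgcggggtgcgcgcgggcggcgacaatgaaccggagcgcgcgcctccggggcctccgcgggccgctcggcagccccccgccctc
Ebf3: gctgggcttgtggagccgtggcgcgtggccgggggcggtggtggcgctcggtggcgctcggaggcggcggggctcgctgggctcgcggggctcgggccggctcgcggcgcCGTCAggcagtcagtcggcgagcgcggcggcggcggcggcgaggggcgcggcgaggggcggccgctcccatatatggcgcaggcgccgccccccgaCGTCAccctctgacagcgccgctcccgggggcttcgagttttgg
Reln: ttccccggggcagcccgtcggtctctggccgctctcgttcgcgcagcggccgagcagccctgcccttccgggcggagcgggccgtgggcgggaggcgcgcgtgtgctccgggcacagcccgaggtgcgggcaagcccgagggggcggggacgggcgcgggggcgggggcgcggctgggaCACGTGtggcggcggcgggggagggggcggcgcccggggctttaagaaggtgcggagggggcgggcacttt
The Nr4a2 window held 4 TGACG half-sites, which began 200, 144, 123 and 111 bases before the start. The Ebf3 window held 2, at 140 and 44 bases, and the Reln window held 0. At least 1 such half-site was found in 17.8% of 32851 RefSeq windows of this length. An E-box was found once, in the Reln window at 71 bases, and 66.2% of all windows held at least 1. The palindrome CCCNNGGG, a core recognised by EBF factors, occurred 2 times in the Reln window and 1 time in the Ebf3 window, against 11.8% of all windows with at least 1. All 3 windows had a GC content of 80%, where the median of all windows was 52.4%. The fixed letters of CCCNNGGG are all G or C, and its share was not computed for windows of like GC content. These matches are letters in a window, without a measurement of binding. Of the 10 members, 7 had a window in the RefSeq table, and Lhx5, Calb2 and Nxph4 had none.

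Reln encodes Reelin, the secreted product that defines Cajal-Retzius function. It was the most abundant Cajal-Retzius transcript of the 6 in both populations per kilobase of exon. Its level was 189.2, 299.8, 320.7, 181.1 and 237.3 CPM in the TdTomato− libraries of mice 2 to 6 and 137.7, 137.9, 142.5, 143.1 and 122.2 CPM in the TdTomato+ libraries. The groups did not overlap, but the lowest TdTomato− level lay close to the highest TdTomato+ level. Reln averaged 245.6 ± 63.2 CPM (SD, n = 5) without and 136.7 ± 8.48 CPM (SD, n = 5) with the reporter, and its log2 fold change was -0.81 (s.e. 0.12, edgeR adjusted p = 2.4e-04). The TdTomato+ libraries spanned a 1.17-fold range and the TdTomato− libraries a 1.77-fold range. Reln (ENSMUSG00000042453) lies at chr5:21884454-22344702 on the minus strand of GRCm38.

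Trp73 encodes p73, a p53-family transcription factor required for Cajal-Retzius survival and a marker of the cells derived from the hem. It was measured at 9.30, 18.8, 17.8, 8.84 and 15.3 CPM in TdTomato− libraries and at 0.227, 1.65, 1.02, 1.39 and 1.31 CPM in TdTomato+ libraries of mice 2 to 6. The groups were far apart, and the TdTomato+ library of mouse 2 was the lowest, with 5 counts, still above the floor. The log2 fold change was -3.65 (s.e. 0.25, edgeR adjusted p = 1.1e-06), the largest decrease among the 6 Cajal-Retzius genes. Exons of an antisense gene, Trp73os, overlap 5.06% of the exonic length of Trp73 (chr4:154056253-154140208), and the strand setting of the deposited counts is not given in the sources used here.

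Lhx1 and Lhx5 are paired LIM homeodomain factors, of which Lhx5 controls Cajal-Retzius number and distribution in the hem region. Lhx5 (chr5:120431699-120441223) was at 4.22, 9.78, 19.0, 5.67 and 6.41 CPM in TdTomato− and 0.181, 1.48, 2.47, 1.13 and 0.452 CPM in TdTomato+ libraries. Lhx1 (chr11:84518284-84525535) was at 3.95, 6.32, 18.5, 4.91 and 5.40 CPM in TdTomato− and 0.227, 0.781, 4.503, 0.826 and 0.407 CPM in TdTomato+ libraries. Mouse 4 held the highest level of both genes in both populations and mouse 2 the lowest. The Lhx5 groups did not overlap, whereas the Lhx1 level of the TdTomato+ library of mouse 4 exceeded that of the TdTomato− library of mouse 2. Log2 fold changes were -3.02 for Lhx5 (s.e. 0.23, edgeR adjusted p = 2.6e-06) and -2.79 for Lhx1 (s.e. 0.26, edgeR adjusted p = 8.9e-06).

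Ebf3 is a helix-loop-helix transcription factor of the COE family expressed by Cajal-Retzius cells, and its gene lies at chr7:137193673-137314445. It was at 11.3, 20.5, 36.5, 14.1 and 13.5 CPM in TdTomato− and 0.589, 3.12, 6.93, 2.48 and 0.678 CPM in TdTomato+ libraries. The groups did not overlap, and mouse 4 was again the highest and mouse 2 the lowest in both populations. The TdTomato− mean was 19.2 ± 10.3 CPM (SD, n = 5) against 2.76 ± 2.58 CPM (SD, n = 5) with the reporter, and the log2 fold change was -2.96 (s.e. 0.26, edgeR adjusted p = 5.7e-06).

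Calb2 encodes calretinin, a calcium-binding protein of Cajal-Retzius cells that also labels classes of interneurons. It was at 13.0, 9.02, 13.5, 12.6 and 11.2 CPM in TdTomato− and 2.54, 5.12, 7.42, 4.48 and 3.12 CPM in TdTomato+ libraries. The groups did not overlap. The log2 fold change was -1.43 (s.e. 0.21, edgeR adjusted p = 2.1e-04), between that of Reln and those of the 4 transcription factors. Calb2 lies at chr8:110137502-110168210. In all, 5 of the 6 Cajal-Retzius genes, every one but Lhx1, had TdTomato+ levels below all TdTomato− levels, a pattern found for 32.4% of all genes.

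The 6 genes were compared pairwise by the difference of their log2 changes within each mouse, 15 pairs of the 21 that were tested over both sets. Reln fell less than Trp73, Lhx1, Lhx5 and Ebf3 in 5 of 5 mice, by 2.11 to 2.89 on the log2 scale, each with p = 0.0625 in an exact two-sided sign-flip test. This is the smallest p that 5 mice allow (0.0938 after adjustment over 21 pairs), so no pair could pass 0.05. Calb2 also fell less than each of the 4 transcription factors in 5 of 5 mice. Reln and Calb2 differed by 0.65 ± 0.95 (SD, n = 5 mice; exact p = 0.25), with Reln falling less in 3 of 5 mice. Among the 4 transcription factors the nearest pair was Lhx5 and Ebf3, which differed by 0.07 ± 0.39 (SD, n = 5; exact p = 0.5625), and the farthest was Trp73 and Lhx1, at -0.78 ± 0.84 (SD, n = 5), with the larger decrease in Trp73 in 4 of 5 mice.

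**Figure D2:**
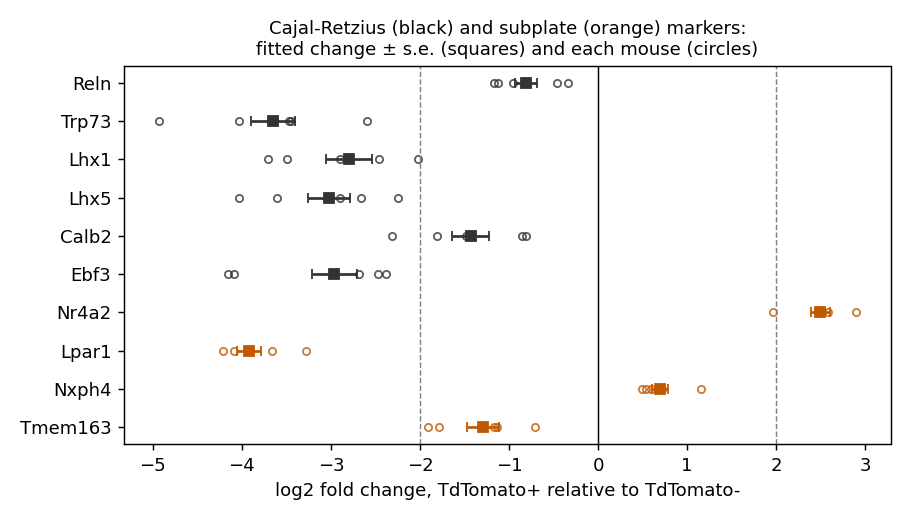
Log2 fold change of each gene in TdTomato+ relative to TdTomato− cells. Squares with bars are the edgeR estimate ± s.e., circles are the 5 mice, and dashed lines mark -2 and 2. Trp73, Lhx1, Lhx5, Ebf3 and Lpar1 lie below -2, Nr4a2 lies above 2, and Reln at -0.81 and Nxph4 at 0.70 lie nearest to 0.

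Ratios of counts within a library, chosen after the levels had been seen and given without a test, compare the Cajal-Retzius genes with each other. In TdTomato− libraries there were 20.3, 15.9, 18.01, 20.5 and 15.5 Reln counts for each Trp73 count in mice 2 to 6. In TdTomato+ libraries there were 607, 83.7, 140.3, 102.8 and 93.2. The ratio was higher in every TdTomato+ than in any TdTomato− library, with the value of mouse 2 resting on 5 Trp73 counts. The Reln to Lhx5 ratio was more variable, between 16.9 and 44.8 without and between 57.6 and 759 with the reporter, again without overlap. The ratio of Ebf3 to Lhx5 counts ranged from 1.92 to 2.69 among TdTomato− and from 1.5 to 3.25 among TdTomato+ libraries, and that of Lhx1 to Lhx5 from 0.647 to 0.977 and from 0.529 to 1.82. Both of these overlapped between the populations, as did the Ebf3 to Trp73 ratio, with a range of 0.879 to 2.05 without and 0.517 to 6.83 with the reporter. The Calb2 to Trp73 ratio moved like that of Reln, from a range of 0.479 to 1.43 without the reporter to one of 2.38 to 11.2 with it.

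**Figure D3:**
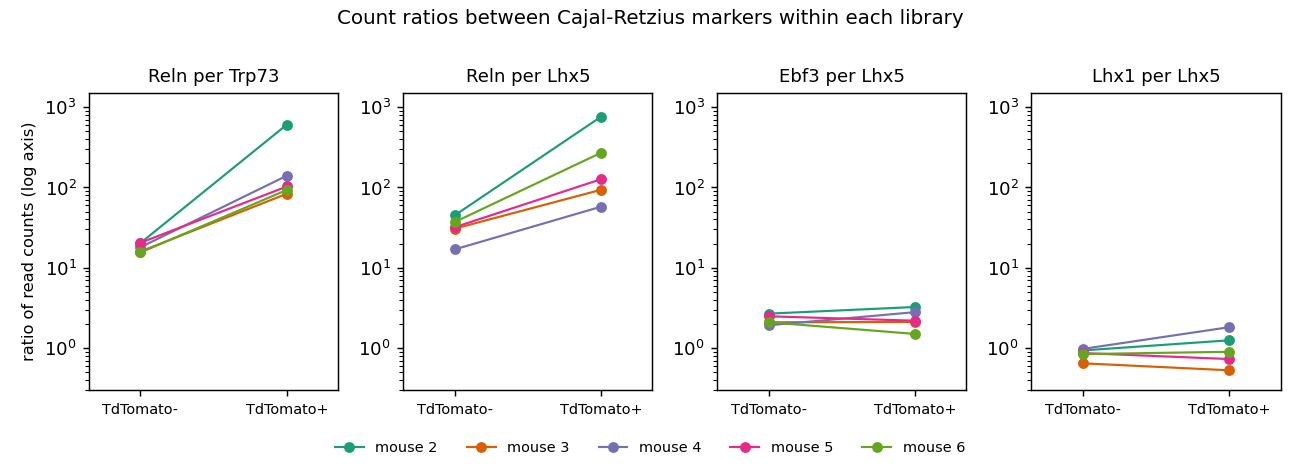
Ratio of read counts between pairs of Cajal-Retzius genes (log axis) in the TdTomato− and TdTomato+ library of each mouse. Reln per Trp73 lies between 15.5 and 20.5 for TdTomato− and between 83.7 and 607 for TdTomato+ libraries, while Ebf3 per Lhx5 and Lhx1 per Lhx5 cover overlapping ranges.

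Other genes reported in Cajal-Retzius cells, from a list of 14, were likewise lower. All 14 fell, against 39.4% of all genes, and 11 of them did so past both thresholds, against 9.74%. The median log2 fold change was -3.14, and -0.01 over all genes tested. Ebf1 (-4.66, s.e. 0.14, edgeR adjusted p = 6.8e-09), which striatal precursors also express, and Cxcr4 (-4.42, s.e. 0.24, edgeR adjusted p = 2.4e-07), the chemokine receptor of migrating Cajal-Retzius cells and interneurons, fell most. Cacna2d2, a calcium channel subunit, at -1.29, and the helix-loop-helix gene Nhlh2 at -1.27 fell least. Many of the 14 are shared with other cells, such as the Zic genes with septal and meningeal cells, Lhx9 with thalamic neurons and Barhl2 with diencephalic neurons.

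Genes of the regions in which Cajal-Retzius cells arise were counted next. Of 14 hem, septum and antihem genes, 10 were in the table, and 8 of these fell, 1 rose and 1 did not pass the test (39.4% of all genes fell and 37.9% rose). Wnt3a, Gdf7 and Bmp4, which define the hem, and Fgf8 were not analysed here. Wnt8b (log2 fold change -4.08) and Rspo1 (-3.67) fell most, whereas Rspo3, a secreted enhancer of Wnt signalling, rose by 2.11 (edgeR adjusted p = 3.7e-08). Wnt8b and Rspo1 were in the table only through their TdTomato− libraries, so they could only be found lower. Rspo3 alone went from 17.6 to 76.0 CPM, and the list summed to between 73.3 and 87.5 CPM in TdTomato− libraries and between 83.2 and 97.1 CPM in TdTomato+ libraries.

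Mouse 4 held the highest levels of Lhx1, Lhx5, Ebf3, Calb2 and Tmem163 in both populations, and also of a list of markers of thalamus, hypothalamus and midbrain. Of the 18 genes of this list, 8 were in the table, all 8 lower in TdTomato+ cells (39.4% of all genes were), and defining genes such as En1, Otp and Foxb1 were among the 10 not analysed here. The summed level of these 8 genes was 208.6, 133.0, 340.8, 224.1 and 105.4 CPM in the TdTomato− libraries of mice 2 to 6 and 11.8, 9.59, 49.2, 18.5 and 5.24 CPM in the TdTomato+ libraries. Most of the TdTomato− sum came from Tcf7l2 (mean 106.0 CPM) and Nkx2-1 (68.7 CPM), so it weighs these genes more than the others of the list. Mouse 4 was highest in both populations for this sum as for the 5 genes, but the order of the other mice differed, and mouse 2, the lowest for Lhx1, Lhx5 and Ebf3, was not the lowest for the sum. The sum of the GABAergic interneuron list was highest in mouse 2 among TdTomato− libraries (2962 CPM) and in mouse 3 among TdTomato+ libraries (236.2 CPM). Lhx1 and Lhx5 are also expressed by neurons of the diencephalon. The part of these cells in the result was not tested. Without mouse 4, Lhx1 changed by -3.21, Lhx5 by -3.06 and Ebf3 by -3.20 on the log2 scale, all past both thresholds, while Calb2 changed by -1.59 and Tmem163 by -1.34.

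By distance between centred log2 CPM profiles over the 10 libraries, among 11326 genes with a mean log2 CPM of at least 1, the genes most like Lhx5 were Ebf3 (distance 0.84), Dlk1 (1.24) and Lhx1 (1.40). Ebf3 was in turn closest to Dlk1 (0.69), Lhx5 and Lhx1. Dlk1, a transmembrane Notch-like protein, had means of 38.02 CPM without and 4.72 CPM with the reporter. Trp73 was not among the 3 nearest of any of these, and its own nearest genes, Car14 (1.53), Ston2 (1.58) and Samd4 (1.5994), were farther away. Reln lay closest to Rpe (0.43), Commd10 (0.48) and Emb (0.51), and Calb2 to St8sia5 (0.63), Rgs2 (0.64) and Rara (0.65). These distances include the difference between the populations, so a gene with a like change is near whatever its variation between mice.

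Nr4a2 encodes Nurr1, an orphan nuclear receptor used as a marker of subplate and of deep-layer neurons. Its level was 20.4, 23.7, 21.1, 21.4 and 17.8 CPM in TdTomato− and 122.0, 134.1, 120.7, 158.9 and 69.6 CPM in TdTomato+ libraries. Each TdTomato+ library was above every TdTomato− library, with mouse 6 the lowest in both populations. The mean rose from 20.9 ± 2.15 to 121.1 ± 32.6 CPM (SD, n = 5 each), a log2 fold change of 2.50 (s.e. 0.11, edgeR adjusted p = 7.1e-08). Nr4a2 (ENSMUSG00000026826) lies at chr2:57106830-57124003. Its nearest profiles were those of Csmd3 (0.60), Cpne4 (0.65) and Tenm1 (0.67), which rose by 2.45, 2.61 and 2.67 on the log2 scale.

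Nxph4 encodes neurexophilin 4, a secreted ligand of alpha-neurexins (chr10:127525473-127534559). It was at 21.2, 37.5, 34.5, 31.9 and 35.8 CPM in TdTomato− and 47.3, 54.5, 52.1, 52.4 and 50.3 CPM in TdTomato+ libraries. The groups did not overlap, and mouse 2 was lowest in both. The log2 fold change was 0.70 (s.e. 0.09, edgeR adjusted p = 9.7e-05), below the threshold of 2 on size. Nr4a2 and Nxph4 were the subplate members without overlap in the upward direction, against 29.1% of all genes.

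Lpar1 encodes a receptor for lysophosphatidic acid that was first described in the ventricular zone of the embryonic cortex and later served as a subplate marker. Its level was 11.7, 24.0, 19.3, 18.5 and 19.0 CPM in TdTomato− and 1.13, 1.52, 1.06, 1.39 and 0.949 CPM in TdTomato+ libraries. The groups were separated by a wide gap and the TdTomato+ libraries lay close together. The log2 fold change of -3.92 (s.e. 0.14, edgeR adjusted p = 1.6e-08) was the largest in size of the 10 genes. All 13 genes of a radial glia and intermediate progenitor list also fell past both thresholds, as 9.74% of all genes did, and they summed to between 3506 and 4251 CPM without and between 169.5 and 263.3 CPM with the reporter. Their part in the Lpar1 result was not tested. Lpar1 lies at chr4:58435255-58553898.

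Tmem163 encodes a zinc transporter of vesicle membranes (chr1:127486546-127679548). It was at 5.83, 11.02, 15.6, 6.93 and 5.99 CPM in TdTomato− and 1.63, 6.72, 7.06, 3.04 and 1.54 CPM in TdTomato+ libraries. The groups overlapped, since mice 3 and 4 were high in both populations, yet every mouse was lower in its TdTomato+ library. The log2 fold change was -1.29 (s.e. 0.18, edgeR adjusted p = 1.4e-04). An exon of Mgat5 on the other strand overlaps 3.54% of its exonic length.

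The 4 subplate genes thus gave 6 pairs, and in each pair the same gene had the higher log2 change in 5 of 5 mice (exact two-sided sign-flip p = 0.0625 for each pair, the smallest possible, 0.0938 adjusted). The widest gap was that of Nr4a2 over Lpar1, 6.32 ± 0.30 (SD, n = 5), and the narrowest that of Nr4a2 over Nxph4, 1.79 ± 0.33. For each Lpar1 count there were between 1.56 and 1.88 Nxph4 counts in the TdTomato− and between 35.9 and 52.95 in the TdTomato+ libraries.

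Of the further subplate genes listed, 13 were in the table, and 8 rose, 3 fell and 2 did not pass the test, where 37.9% of all genes rose and 39.4% fell. The median log2 fold change was 2.32, against -0.01 over all genes. Nxph3, another neurexophilin, rose by 4.42 (s.e. 0.15, edgeR adjusted p = 1.3e-08), and Hs3st4, a heparan sulfate sulfotransferase, by 4.19 (s.e. 0.36, edgeR adjusted p = 5.1e-06). Svil, an actin-binding protein, changed by -5.23 on the log2 scale (s.e. 0.18, edgeR adjusted p = 1.3e-08) and Ccn2, the connective tissue growth factor used as a mature subplate marker, by -3.50 (s.e. 0.35, edgeR adjusted p = 1.7e-05). Ccn2 was barely detected with the reporter, at 0.193 ± 0.112 CPM, against 2.29 ± 0.72 CPM without it (SD, n = 5 each). It was in the table only through its TdTomato− libraries, so it could only be found lower. The list mixes genes of the subplate alone with genes that layer VI neurons also express, such as Tbr1 and Sox5, which rose by 2.32 and 2.47. Cplx3 and Trh, other subplate markers, were not analysed here.

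**Figure D4:**
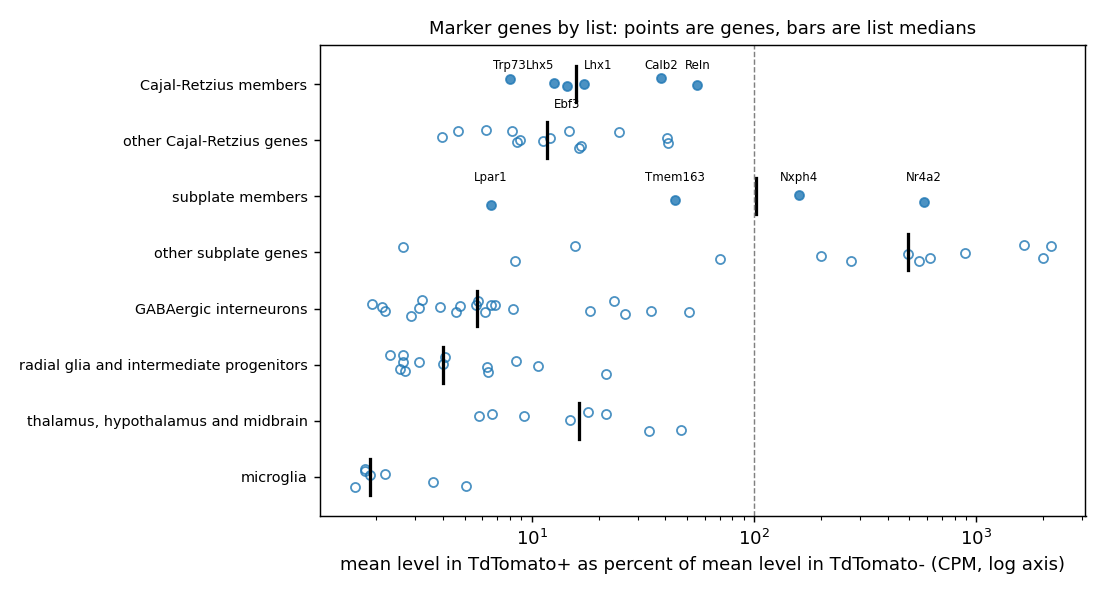
Mean level in TdTomato+ libraries as a percent of the mean level in TdTomato− libraries (log axis) for each gene of 8 marker lists, with the 10 members filled and named and list medians as bars. Cajal-Retzius members span 7.98 to 55.6% and other Cajal-Retzius genes 3.94 to 41.2%, while the subplate members span 6.55 to 580.0%, on both sides of the dashed line at 100%.

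Levels of different genes were compared per kilobase of exon. In TdTomato− cells the order was Nxph4 (19.2 ± 3.87 CPM per kb, SD, n = 5), Reln (10.4 ± 2.66), Calb2 (6.80 ± 1.04), Nr4a2 (5.14 ± 0.53), Lpar1 (4.31 ± 1.02), Lhx5 (3.35 ± 2.21), Trp73 (2.53 ± 0.85), Tmem163 (2.11 ± 0.98), Ebf3 (2.08 ± 1.11) and Lhx1 (1.92 ± 1.49). The library ranges of all 9 neighbouring pairs overlapped, although Nxph4 was above Reln and Reln above Calb2 in each of the 5 libraries. In TdTomato+ cells Nxph4 (30.6 ± 1.61 CPM per kb, SD, n = 5) and Nr4a2 (29.8 ± 8.03) led and overlapped. Reln (5.76 ± 0.36) and Calb2 (2.60 ± 1.10) followed, each separated from the gene above it. The other 6 genes were below 1 CPM per kb on average, from Tmem163 (0.93 ± 0.63) to Trp73 (0.20 ± 0.10), with overlapping ranges between neighbours. With the length of the longest coding transcript, a choice made after seeing the data, Reln was at 21 and 11.7 CPM per kb in TdTomato− and TdTomato+ cells, and came before Nxph4 (19.2) in TdTomato− cells. Ebf3 (3.84) then came before Lhx5 (3.35) in TdTomato− cells, and Nr4a2 (33.9) before Nxph4 (30.6) in TdTomato+ cells. In TdTomato+ cells Ebf3 (0.553) also came before Lhx5 (0.425) and Lhx1 (0.351), and Tmem163 (1.147) was above 1 CPM per kb.

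The receptors and transducers of the Reelin signal moved in both directions. Of 28 genes on this list, all in the table, 12 rose, 8 fell and 8 did not pass the test, where 37.9% of all genes rose and 39.4% fell. None passed both thresholds, and the median log2 fold change was 0.04 against -0.01 over all genes. The receptor gene Vldlr rose from 50.96 ± 2.02 to 158.6 ± 12.95 CPM (log2 fold change 1.63, s.e. 0.05, edgeR adjusted p = 1.1e-08). Dab1, the adaptor that is phosphorylated when Reelin binds, rose from 157.0 ± 16.5 to 603.4 ± 91.1 CPM (log2 fold change 1.94, s.e. 0.06, edgeR adjusted p = 1.2e-08). The other receptor gene, Lrp8, was at 388.0 ± 55.6 and 380.9 ± 13.5 CPM (log2 fold change -0.02, s.e. 0.06, edgeR adjusted p = 0.83). The adhesion genes Nectin3 (-1.95) and Itgb1 (-1.07) had the largest decreases.

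Relatives of the Cajal-Retzius genes were read against the 39.4% of all genes that fell and the 37.9% that rose, without a test of the lists. In the LIM homeodomain list, 10 of 14 genes were in the table, and 6 fell, 3 rose and 1 did not pass the test. Isl1 (-4.03) and Lhx6 (-3.60), which mark striatal and interneuron lineages, fell most, and the cofactor genes Ldb2 (2.60) and Ssbp3 (1.10) rose. In the p53 list, 5 of 6 genes were in the table, and 4 fell, none past both thresholds, among them Cdkn1a (-1.54) and Trp53 (-0.97). Of 5 EBF relatives and cofactors, 4 fell and 1 rose, the cofactor gene Zfp521 (0.74, edgeR adjusted p = 0.021). Of the EF-hand relatives of Calb2, 4 of 6 were in the table, and Calb1, encoding calbindin, fell by 2.97 while the calmodulin genes Calm2 and Calm3 rose by 0.61 and 0.54.

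Families of the subplate genes held members that rose and members that fell, where 37.9% of all genes rose and 39.4% fell. Among 5 NR4A and RXR genes, Nr4a3 rose by 2.49 (s.e. 0.09, edgeR adjusted p = 1.8e-08), nearly the same change as that of Nr4a2, and Nr4a1 by 0.34, while the partner receptor genes Rxrg, Rxra and Rxrb fell, Rxrg most (-3.82). Of 13 lysophosphatidic acid genes, 12 were in the table, with 8 higher and 4 lower. Lpar6 (-2.76) and the phosphatase gene Plpp3 (-3.85) fell, as Lpar1 did, and Plppr5 and Plppr4, of the plasticity-related family, rose by 3.13 and 1.94. Of 6 neurexophilin and alpha-neurexin genes, 3 rose and 3 fell. Nxph3 (4.42) was among the higher genes, and Nxph2 (-4.55) and Nrxn3 (-3.91) were lower.

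Marker lists of other cells were also counted, and 39.4% of all genes were lower in TdTomato+ libraries. All 20 genes of the GABAergic interneuron list fell (their sum lay between 2364 and 2962 CPM without and between 141.7 and 236.2 CPM with the reporter), with the largest decreases in Dlx2 and Sp9. So did 7 of 7 microglial genes in the table, of which C1qa, C1qb and P2ry12 had no more than 3 counts in any TdTomato+ library (summed level without and with the reporter 14.7 to 69.0 and 0.725 to 1.76 CPM). Each microglial gene but Csf1r was below 0.501 CPM in all TdTomato+ libraries. As the table holds only genes that reach this level in 5 libraries, these genes could only be found lower. All 4 oligodendrocyte precursor genes and all 3 choroid plexus genes in the table fell too, with Olig2 (-6.09) and Otx2 (-4.02) the lowest. Of 5 meningeal genes in the table, 4 fell (summed level 15.5 to 32.6 and 11.1 to 20.3 CPM), and of 6 pericyte and endothelial genes, 4 fell (13.6 to 22.4 and 2.30 to 4.51 CPM), while Col1a1, Lum, Cldn5 and Cdh5 were not analysed here. The part of these cells in the decrease of the Cajal-Retzius genes was not tested.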

How the data were processed

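The authors deposited raw read counts per gene for 10 libraries. Per the methods they trimmed reads, aligned them to GRCm38 with STAR 2.4.2a, kept uniquely mapped reads, counted with its quantMode option and removed outliers seen on a scaling plot. The strand column and annotation release are not given in the sources used here, and labels and methods name different library kits. The table holds 14300 genes, each with at least 0.501 CPM (here without TMM factors) in 5 libraries, and genes below that are not analysed here. A gene below that level in every TdTomato+ library was in the table through its TdTomato− libraries, and could only be found lower.

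Both populations were compared by the quasi-likelihood test of edgeR 4.0.16 (R 4.3.3), after filterByExpr, which removed no gene, and TMM scaling, with the mouse as a block. Adjusted p values are Benjamini-Hochberg values over the whole table, at a threshold of 0.05, and the size threshold was an absolute log2 fold change of 2. Pairing followed the mouse number in the labels, under which each mouse gave both populations. Deviations from the group means correlated at 0.30, 0.27, 0.28, 0.19 and 0.32 for the same mouse (mice 2 to 6) and at -0.31 to 0.21 for different mice. Coordinates and lengths came from GENCODE M21, which matched 14271 identifiers, and upstream sequence from RefSeq. Symbols came from a reference list of gene names, or from GENCODE where that list had none. Counts were simulated for this comparison with a log2 change of 3, up or down, in 200 genes. Of these, 200 of 200 had an adjusted p of 0.05 or less in the planted direction. Replicate libraries differed by more than counting noise (chi-square per degree of freedom 4.46 to 32.0).

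The genes and lists were chosen with earlier results of these data known. Named were all members, from each list up to 2 genes with the largest and 2 with the smallest change past the adjusted p threshold, Vldlr, Lrp8 and Dab1, and the 3 nearest profiles of each member. Genes named outside this rule, such as Tbr1, Sox5, Rxrb and genes not analysed here, were chosen after their values were seen, as were the count ratios. Some genes that the rule covers are not reported here. The fit was repeated with DESeq2 1.42.0, with RLE or upper-quartile scaling, without the count filter or with one at 1 CPM in 5 libraries, without the replicate block, with TREAT, with a prior count of 2, and without each mouse in turn.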

Additional observations from a re-analysis of the deposited data

Results flagged for a closer look

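In 3 of 20 groups of 5 libraries (10 genes in both populations), the lowest library stood apart from the others by Dixon's ratio of gap to range, where chance gives about 1 of the 20. Reln in the TdTomato+ library of mouse 6 had a ratio of 0.757, with 6.93 log2 CPM against 7.11 to 7.16 in the others, a small gap in a tight group. Trp73 in the TdTomato+ library of mouse 2 had a ratio of 0.736, with -1.70 log2 CPM against 0.13 to 0.79, and this library held 5 counts of the gene. Nxph4 in the TdTomato− library of mouse 2 had a ratio of 0.716, with 4.41 log2 CPM against 5.00 to 5.23. Log2 CPM used a prior count of 2. Mouse 2 held the lowest level of 6 of the 10 genes in TdTomato− and of 6 of the 10 genes in TdTomato+ libraries.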

How the results depend on the processing

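The 10 genes kept their direction under all 13 alternatives, and the counts past both thresholds stayed at 4 lower Cajal-Retzius genes and at 1 lower and 1 higher subplate gene. Without the count filter the fit was the main fit again, as no gene had been removed, and TREAT keeps the main fold changes. Neither could therefore change a direction. Under TREAT, which tests against a log2 fold change of 2 itself, Reln (-0.81), Calb2 (-1.43), Nxph4 (0.70) and Tmem163 (-1.29) had an adjusted p of 1.0, since their fold changes are below that value, and 273 genes of the table were higher instead of 457. Without the replicate block, the largest adjusted p of a member was 0.030, for Tmem163 (log2 fold change -1.18, s.e. 0.44), Lhx1 was at -2.53 (s.e. 0.69), and no call of the 10 genes changed. Over the whole table the counts past both thresholds were then 1385 lower and 461 higher, against 1393 and 457 with the block. Leaving out each mouse gave log2 fold changes of -0.93 to -0.72 for Reln, -3.91 to -3.46 for Trp73, -3.21 to -2.63 for Lhx1 and 0.59 to 0.76 for Nxph4, and the largest adjusted p of any of the 10 genes was 1.7e-03, for Calb2 without mouse 5 (edgeR). The longest coding transcript as length was added after seeing the data. Levels then moved most for Reln (21 and 11.7 CPM per kb in TdTomato− and TdTomato+ cells) and Ebf3 (3.84 and 0.553). Counts of 4 to 5 in the lowest TdTomato+ libraries limit the precision of Trp73, Lhx1 and Lhx5 there.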
